A study of Rattus norvegicus with 12 samples.

Results

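The Wnt feedback and direct target genes are 10 genes that are read as a report of Wnt/β-catenin signaling: *Axin2*, *Znrf3*, *Rnf43*, *Nkd1*, *Apcdd1*, *Lgr5*, *Tcf7*, *Lef1*, *Sp8* and *Tnfrsf19*. They were chosen by name from the 21556 genes of the table, and all 10 were found. The choice was made with earlier results of these data known, including how the genes differed between cells with and without Wnt3a. Their values for Wnt3a, including how many passed the threshold that was applied to all genes, are therefore given as a description, with no p-value and with nothing read from the counts. Their values for menthol, averaged over cells without and with Wnt3a, are given with tests. Whether menthol changed the response to Wnt3a was tested over all genes. The members' values for this follow from the Wnt3a differences known at the choice, so they are a description too.

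RNA was sequenced in 12 libraries of ND7/23 cells, a line made by fusing neurons of rat dorsal root ganglia with the mouse neuroblastoma N18Tg2. Each of 4 groups had 3 libraries: a control, 100 μM menthol, which opens the cold-sensing channel TRPM8, 100 ng/ml Wnt3a, which switches on Wnt/β-catenin signaling, and the 2 agents together. All stimulations lasted 6 h. The study used the sequencing to ask how menthol bears on Wnt/β-catenin signaling in these cells. The labels do not say whether the 3 libraries of a group came from separate cultures, so the p-values measure the spread between these libraries, which may be technical.

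When a Wnt ligand binds Frizzled and LRP receptors at the cell surface, the complex that destroys β-catenin is switched off, and β-catenin enters the nucleus and joins the TCF/LEF proteins on DNA. Among the genes that this pair turns on are brakes on the pathway itself. AXIN2 rebuilds the destruction complex, ZNRF3 and RNF43 remove Frizzled receptors from the membrane, NKD1 acts on Dishevelled, and APCDD1 inhibits signaling at the cell surface, while LGR5, bound by R-spondins, works against ZNRF3 and RNF43. *Tcf7* and *Lef1* encode TCF/LEF factors and can be turned on by the pathway, so they feed back at the level of DNA binding. *Sp8*, a zinc-finger transcription factor, and *Tnfrsf19*, a receptor of the TNF receptor family also called TROY, are also described as targets of the pathway.

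The 12 libraries held 36914010 to 38836269 reads on genes, and the deepest had 1.052 times the reads of the shallowest. The values are FPKM, read fragments scaled by the length of the gene and the size of the library, so levels can be compared between genes. Chi-square per degree of freedom between libraries of the same group was 3.48 to 7.27, above sampling noise in every pair. The neuronal label was only partly borne out by the RNA. Of 14 sensory neuron markers, 2 had a mean of at least 1 FPKM, *Uchl1* (101 FPKM) and *Isl1* (13.2 FPKM), and 11 were under 0.1 FPKM, among them *Tubb3*, *Stmn2*, *Prph*, *Calca* and *Scn10a*. Of 6 fibroblast markers, 4 had a mean of at least 1 FPKM, led by *Col1a2* (115 FPKM). The summed fibroblast markers were 136 to 145 FPKM in control, 124 to 128 with menthol, 129 to 135 with Wnt3a and 124 to 126 with both, while *Lum* was under 0.1 FPKM, and the part of this in the results below was not tested. Of the other lists, 1 of 6 glial, 1 of 6 muscle, 1 of 4 immune and 1 of 3 epithelial markers in the table had a mean of at least 1 FPKM, and *Sox10*, *Ptprc* and *Cdh1* were under 0.1. The reads were aligned to the rat genome, and how reads from the mouse genome of the hybrid were assigned is not given in the sources used here.

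Promoters of 3 members are shown because their RNA differed in how it stood with Wnt3a: *Axin2* and *Tnfrsf19* were higher, and *Sp8* was not. Each runs from 250 bases before to 50 bases after the start site in RefSeq (build GRCr8), at chr10:94398535-94398834 on the plus strand for *Axin2*, chr15:39334517-39334816 on the minus strand for *Tnfrsf19* and chr6:145958969-145959268 on the plus strand for *Sp8*. Capitals mark the letters CTTTGNN with A or T at both N, the core that TCF/LEF proteins bind, on either strand.
Axin2: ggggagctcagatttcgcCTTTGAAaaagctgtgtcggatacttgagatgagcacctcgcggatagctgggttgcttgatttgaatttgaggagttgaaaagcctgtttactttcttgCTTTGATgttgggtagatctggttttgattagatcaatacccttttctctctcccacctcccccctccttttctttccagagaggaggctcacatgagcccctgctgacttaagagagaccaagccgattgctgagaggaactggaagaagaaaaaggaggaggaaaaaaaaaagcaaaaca
Tnfrsf19: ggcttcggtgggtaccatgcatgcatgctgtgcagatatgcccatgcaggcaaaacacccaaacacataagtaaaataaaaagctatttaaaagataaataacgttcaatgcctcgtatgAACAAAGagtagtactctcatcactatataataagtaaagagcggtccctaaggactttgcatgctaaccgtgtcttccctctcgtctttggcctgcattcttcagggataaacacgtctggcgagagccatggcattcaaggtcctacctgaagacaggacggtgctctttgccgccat
Sp8: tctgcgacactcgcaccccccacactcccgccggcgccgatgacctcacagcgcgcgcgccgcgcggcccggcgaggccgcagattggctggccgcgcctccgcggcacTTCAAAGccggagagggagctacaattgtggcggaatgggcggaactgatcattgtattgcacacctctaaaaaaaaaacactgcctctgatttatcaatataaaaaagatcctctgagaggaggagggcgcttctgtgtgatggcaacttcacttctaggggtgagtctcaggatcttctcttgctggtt

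The *Axin2* window held 2 matches, which began 232 and 132 bases before the start site. *Tnfrsf19* held 1 match, 130 bases before the start site on the opposite strand, and *Sp8* held 1, 141 bases before it on the opposite strand. RefSeq promoters were at hand for 8 of the 10 members. Of these, *Nkd1* and *Tcf7* also held 1 match each, and *Rnf43*, *Lef1* and *Apcdd1* held none. Among all 33469 promoters of the same length, 17.1% held at least 1 match and 2.12% held at least 2. Among the 8928 promoters of tested genes the shares were 10.9% and 0.874%. A match is a description of the letters, and *Sp8* held 1 although its RNA was not higher with Wnt3a.

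The members fell into 3 ranges of expression. *Sp8* had the highest mean level over the 12 libraries, 18.3 FPKM, followed by *Tnfrsf19* with 9.29, *Axin2* with 6.34, *Znrf3* with 1.54 and *Tcf7* with 1.13 FPKM. *Rnf43* was low, at 0.292 FPKM, although 71 to 163 reads lay on it in each library. *Lef1*, *Nkd1*, *Lgr5* and *Apcdd1* stood at 0.0158 FPKM or less, with 35, 10, 13 and 4 reads over all 12 libraries. Tests across genes used the 11451 genes with a mean of at least 0.5 FPKM, which kept 5 of the 10 members: *Axin2*, *Tnfrsf19*, *Sp8*, *Znrf3* and *Tcf7*. Of all genes in the table, 81.8% were lower than *Sp8*, 66.8% were lower than *Axin2* and 44.0% were lower than *Rnf43*. Since RNA was taken from whole cultures, fewer cells with a transcript and less of it per cell cannot be told apart. Where groups are said below to lie apart or to be free of overlap, the share of all genes that separate so was not counted. Nothing is read from such a separation.

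*Axin2*, the scaffold of the destruction complex that the pathway itself induces, was higher in every library with Wnt3a than in any library without it. Control libraries held 5.07, 5.07 and 4.72 FPKM and menthol libraries 4.55, 5.19 and 5.28 FPKM. With Wnt3a the values were 6.56, 7.31 and 7.45 FPKM, and with menthol and Wnt3a together 7.83, 8.71 and 8.37 FPKM. The first pair of groups overlapped, and each of the other steps, from menthol to Wnt3a and from Wnt3a to both, was free of overlap. The means without Wnt3a were 4.95 ± 0.201 FPKM in control cells and 5.01 ± 0.402 FPKM with menthol, and those with it were 7.10 ± 0.479 FPKM for Wnt3a alone and 8.30 ± 0.445 FPKM for both agents (SD, n = 3). The mean with Wnt3a was thus 1.43 times that of control, and the mean with both was 1.66 times that of menthol alone. On the scale of log2(FPKM + 0.1), used for all log2 values here, the difference was 0.51 (SE 0.072) without menthol and 0.72 (SE 0.072) with it, which is 0.62 (95% confidence interval 0.51 to 0.72) averaged over both.

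*Tnfrsf19* also stood higher with Wnt3a, with an average difference close to that of *Axin2*. It was at 7.60, 6.93 and 6.96 FPKM in control and at 7.83, 7.48 and 7.29 FPKM with menthol. The Wnt3a libraries had 11.8, 10.1 and 13.5 FPKM and those with both had 11.1, 11.2 and 9.65 FPKM. All 6 libraries with Wnt3a lay above all 6 without it, whereas the pair without Wnt3a overlapped and so did the pair with Wnt3a. The means were 7.16 ± 0.38, 7.53 ± 0.278, 11.8 ± 1.67 and 10.7 ± 0.871 FPKM (SD, n = 3) in the groups control, menthol, Wnt3a and both. The ratio of means was 1.65 for Wnt3a against control and 1.41 for both against menthol. In log2 these were 0.70 (SE 0.088) and 0.49 (SE 0.088), with 0.60 (95% confidence interval 0.46 to 0.73) as their average. In contrast to *Axin2*, whose mean was highest with both agents, *Tnfrsf19* had its highest mean with Wnt3a alone, and 1 library, Wnt3a replicate 3, had the highest value.

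**Figure D1:**
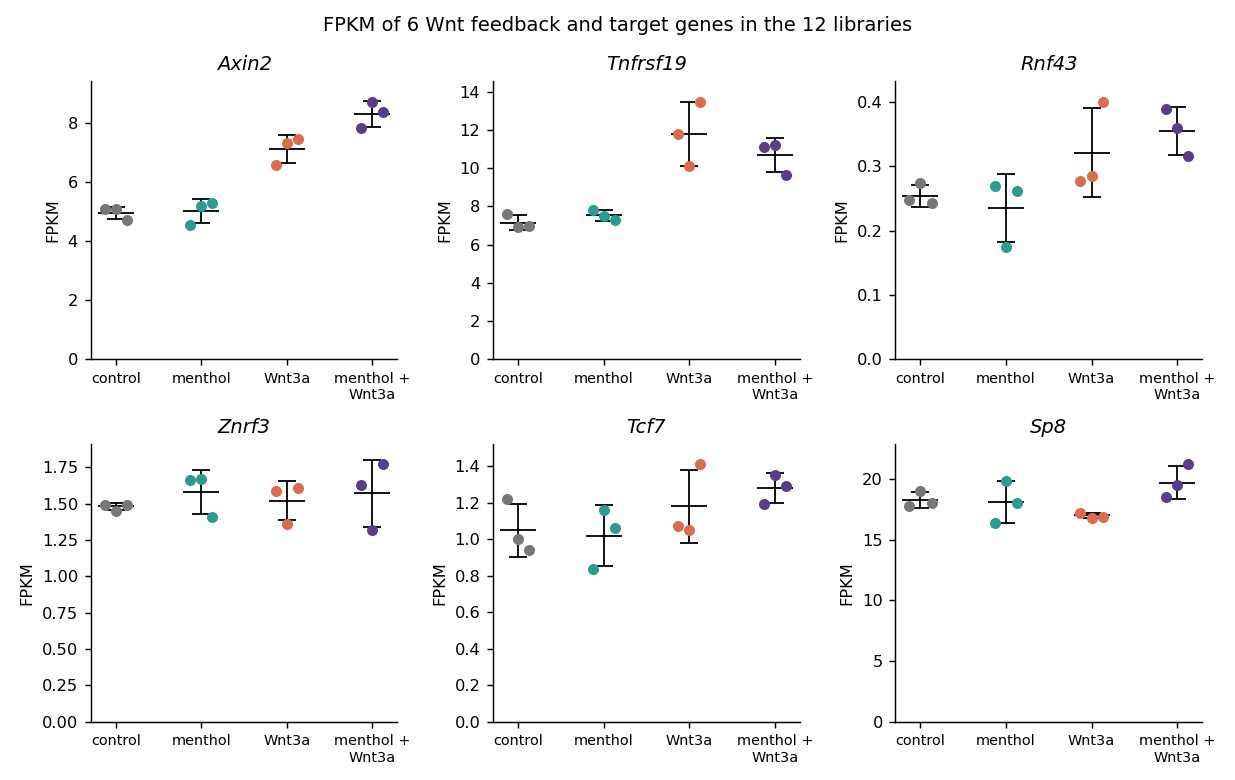
FPKM (vertical axes, from 0) of 6 members in the 4 groups. Each point is a library, the long bar is the mean of 3 libraries and the whiskers are the SD. The 6 libraries with Wnt3a lie above the 6 without it for *Axin2*, *Tnfrsf19* and *Rnf43*, while the groups of *Znrf3* overlap and those of *Sp8* span 16.4 to 21.2 FPKM. For *Rnf43* the nearest values are 0.278 with Wnt3a and 0.274 FPKM in control. The share of all genes that separate so was not counted.

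Whether the ubiquitin ligases *Rnf43* and *Znrf3*, which clear Frizzled from the cell surface, differ in pattern was not tested. *Rnf43* had 102, 111 and 100 reads in control libraries and 110, 71 and 107 after menthol. With Wnt3a it had 114, 112 and 163 reads, and with both agents 158, 149 and 128. In FPKM the means were 0.254 ± 0.0168, 0.235 ± 0.0527, 0.321 ± 0.0693 and 0.355 ± 0.0373 (SD, n = 3). The Wnt3a libraries, from 0.278 FPKM up, lay just above the control libraries, which reached 0.274, and the libraries with both lay above those with menthol. The mean ratios were 1.26 for Wnt3a against control and 1.51 for both against menthol, and Wnt3a replicate 3 with 0.401 FPKM was the library that raised the first. *Rnf43* was under the minimum of 0.5 FPKM, so its log2 values come from a fit without a minimum over all 21556 genes. They were 0.24 (SE 0.169) without menthol and 0.45 (SE 0.169) with it, and the added 0.1 makes these smaller than the change in FPKM itself. In a limma voom fit of the recovered reads over 13365 genes with a mean of at least 10 reads, chosen after the values were seen, they were 0.32 (SE 0.202) and 0.62 (SE 0.203). Over 17 alternatives, this fit among them, the differences ran from 0.074 to 0.319 without menthol and from 0.135 to 0.615 with it.

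*Znrf3* had 1.49, 1.45 and 1.49 FPKM in control and 1.59, 1.36 and 1.61 FPKM with Wnt3a. With menthol it had 1.66, 1.67 and 1.41 FPKM and with both 1.63, 1.32 and 1.77 FPKM. All 4 groups overlapped, and the means lay between 1.48 and 1.58 FPKM. The log2 difference with Wnt3a was 0.03 (SE 0.12) without menthol and -0.01 (SE 0.12) with it. As a description, the 95% confidence interval of the average ran from -0.17 to 0.19.

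Of the members that act at the DNA, *Tcf7*, which encodes TCF1, was expressed and *Lef1* was close to 0. *Tcf7* had 1.22, 1.0 and 0.940 FPKM in control, 0.836, 1.16 and 1.06 with menthol, 1.07, 1.05 and 1.41 with Wnt3a and 1.19, 1.35 and 1.29 with both. The Wnt3a and control libraries overlapped, and the libraries with both lay above those with menthol alone, with a lowest value of 1.19 against a highest of 1.16 FPKM. The ratio of means was 1.12 for Wnt3a against control and 1.25 for both against menthol. In log2 the differences were 0.14 (SE 0.151) and 0.31 (SE 0.151), and the interval of their average was -0.003 to 0.46. With a library left out the differences ran from 0.018 to 0.242 and from 0.187 to 0.404.

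*Sp8*, the member with the most RNA for its length, had estimates of opposite sign in the pair of Wnt3a comparisons, and both intervals included 0. Control libraries had 17.8, 19.0 and 18.0 FPKM and Wnt3a libraries 17.2, 16.8 and 16.9 FPKM. Menthol libraries had 16.4, 19.8 and 18.0 FPKM and those with both had 18.5, 19.5 and 21.2 FPKM. The Wnt3a libraries lay below all control libraries and below all libraries with both, and the menthol libraries spread over the range of the others. The log2 difference with Wnt3a was -0.11 (SE 0.063) without menthol and 0.13 (SE 0.063) with it, and the average was 0.01 (95% confidence interval -0.09 to 0.11).

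**Figure D2:**
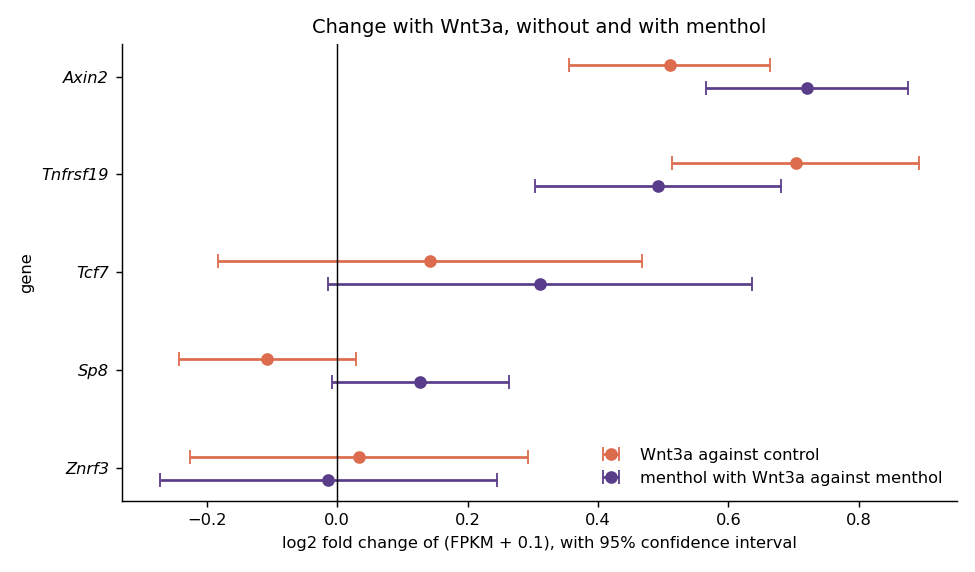
Log2 fold change of FPKM + 0.1 with Wnt3a (horizontal axis) for the 5 members tested, without menthol (Wnt3a against control) and with it (both against menthol). Points are estimates and bars 95% confidence intervals, from 0.36 to 0.66 and 0.57 to 0.87 for *Axin2* and from 0.51 to 0.89 and 0.30 to 0.68 for *Tnfrsf19*, while every interval of *Tcf7*, *Sp8* and *Znrf3* includes 0. The members were chosen with these differences known, so the intervals are a description and no test.

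Of the 4 members near 0, none gave a level that could be compared between groups. A count of 3 reads in a library was taken as the floor, which is 0.0161 to 0.0169 FPKM for *Lef1*, 0.0302 to 0.0318 for *Nkd1*, 0.0177 to 0.0186 for *Lgr5* and 0.0226 to 0.0238 for *Apcdd1*. *Lef1*, the TCF/LEF factor first known from lymphoid cells, had 0, 10 and 8 reads in the control libraries. It had 1, 0 and 7 reads with menthol, 3, 1 and 3 with Wnt3a and 0, 0 and 2 with both. It was thus over the floor in 3 libraries, none of which had received Wnt3a. *Lgr5*, the R-spondin receptor and stem cell marker, had 8 reads in the 3 Wnt3a libraries, 6 of them in replicate 3, and 1 or 2 reads in each other group. *Nkd1*, the Dishevelled antagonist, had 6 reads with Wnt3a, 4 of them in replicate 3, and 1 or 2 reads in each other group. *Apcdd1*, the membrane inhibitor, was at 0 in all libraries but 2, both given menthol with Wnt3a, with 3 reads and 1 read. At this depth no response of these 4 genes was detectable, and no fold is given. These limits cover counting error only.

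**Figure D3:**
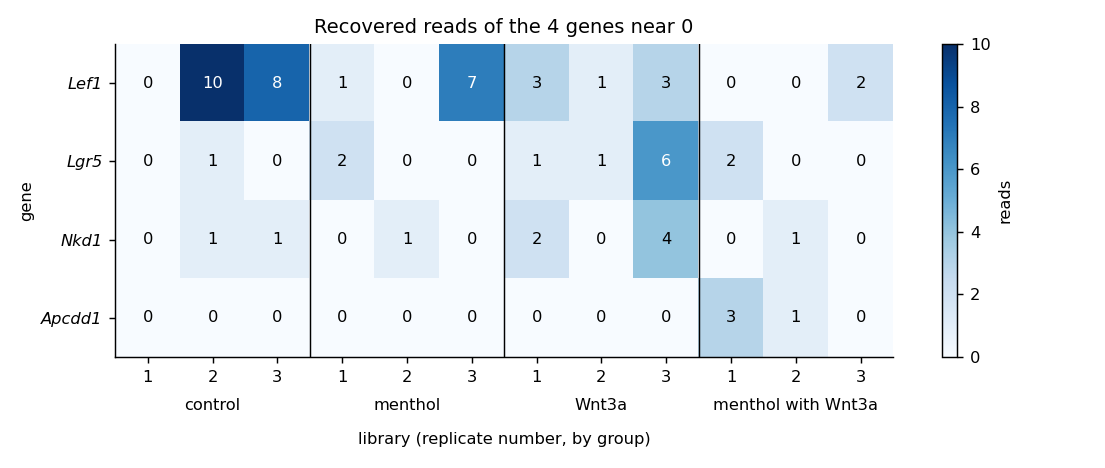
Recovered reads of *Lef1*, *Lgr5*, *Nkd1* and *Apcdd1* (rows) in each of the 12 libraries (columns, by group and replicate number), with the colour scale in reads. The highest values are 10, 8 and 7 reads of *Lef1* in libraries without Wnt3a, and *Apcdd1* has reads in 2 libraries only.

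The number of genes that differed with Wnt3a depended on the fit. In Wnt3a against control, limma at an adjusted p under 0.05 called 50 of 11451 genes (0.437%), 26 higher and 24 lower, while 1727 (15.1%) had an unadjusted p under 0.05, limma voom called 303 and the fit without Wnt3a replicate 3 called 291. As a description, 2 of the 5 tested members, *Axin2* and *Tnfrsf19*, were among the 50. In both against menthol it called 11 genes (0.0961%), 9 higher and 2 lower, with *Axin2* as the 1 member. For Wnt3a averaged over both menthol states it called 92 genes (0.803%), 54 higher and 38 lower, with *Axin2* and *Tnfrsf19* again the 2 members. The comparison of both against menthol shares no library with that of Wnt3a against control, but the members were chosen with each of them known, so nothing is read from these counts. As a description of genes chosen with these differences known, the members' median log2 difference was 0.14, 0.31 and 0.23 in the 3 comparisons. Over all tested genes it was 0.004, 0.004 and 0.003. The number of members past the threshold was 1 in Wnt3a against control when either control replicate 3 or Wnt3a replicate 2 was left out or no FPKM minimum was set, and 2 in both against menthol when either Wnt3a replicate 2 or 3 was left out or limma voom was used.

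**Figure D4:**
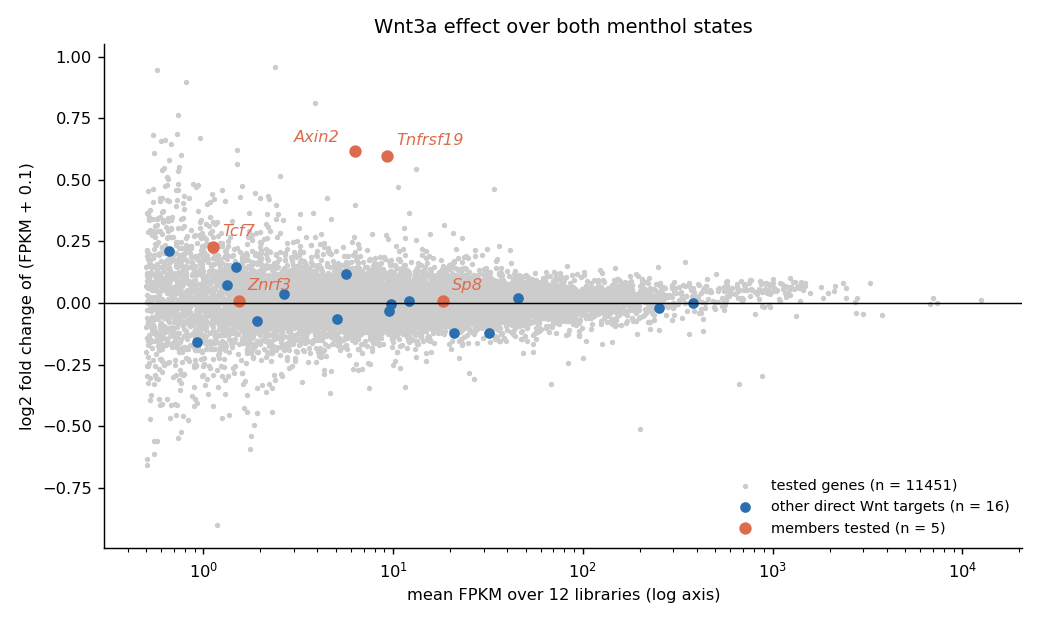
Log2 fold change with Wnt3a, averaged over both menthol states (vertical axis), against mean FPKM (horizontal log axis) for the 11451 tested genes in grey, the 16 other direct Wnt targets tested in blue and the 5 members tested in orange. *Axin2* is at 0.62 and *Tnfrsf19* at 0.60, and the blue points lie around 0. The members were chosen with these differences known.

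Menthol was tested as the average of its difference in cells without Wnt3a and in cells with Wnt3a, which is independent of the Wnt3a difference in this balanced design and is not the effect of menthol alone. Here limma called 132 genes (1.15%), 56 higher and 76 lower, and 0 of the 5 tested members. An unadjusted p under 0.05 was found for 2 of the 5 and for 1773 of all 11451 genes (15.5%), and limma voom called 0 of the 5. *Axin2* was 0.12 higher in log2 with menthol (SE 0.051, 95% confidence interval 0.01 to 0.23, limma adjusted p = 0.285), with a ratio of means of 1.01 for menthol against control and 1.17 for both against Wnt3a. *Sp8* was 0.10 higher (SE 0.045, interval 0.002 to 0.19, limma adjusted p = 0.312). *Tnfrsf19* differed by -0.03 (interval -0.17 to 0.10, limma adjusted p = 0.84), *Tcf7* by 0.04 (interval -0.19 to 0.27, adjusted p = 0.903) and *Znrf3* by 0.06 (interval -0.12 to 0.25, adjusted p = 0.773). In the fit without a minimum, *Rnf43* differed by 0.01 (SE 0.12, limma adjusted p = 0.988). These intervals are for the average over cells without and with Wnt3a, and they do not give the effect of menthol in cells with Wnt3a.

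Whether menthol changed the response to Wnt3a was tested with the interaction, the log2 difference with Wnt3a in menthol-treated cells minus that in cells without menthol. Limma called 0 of 11451 genes (0.0%), with 800 genes at an unadjusted p under 0.05, limma voom on the recovered reads called 0 and the fit with no FPKM minimum called 1. For *Axin2* the interaction was 0.21 (SE 0.102, 95% confidence interval -0.01 to 0.43), and 0.143 to 0.251 with a library left out. The 3 libraries with both agents were all above the 3 with Wnt3a, with a ratio of means of 1.17. For *Tnfrsf19* the interaction was -0.21 (SE 0.124, interval -0.48 to 0.06), and -0.316 to -0.112 with a library left out. *Sp8* had an interaction of 0.23 in log2 (SE 0.089, interval 0.04 to 0.43), and its interval left out 0 before any adjustment over all genes. *Tcf7* was at 0.17 (interval -0.29 to 0.63), *Znrf3* at -0.05 (interval -0.41 to 0.32) and *Rnf43*, without a minimum, at 0.21 (SE 0.24). With 0 genes called, no member passed the adjustment. The interaction is the difference between the Wnt3a comparisons that were known when the members were chosen. The members' interactions and intervals are therefore a description and no test, and nothing is read from them. Whether *Axin2* and *Tnfrsf19* differ from each other in their interaction was not tested.

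Other genes that are described as direct targets of the pathway were taken from a list of 36, of which 29 were in the table and 16 were tested. None was called by limma in the 3 Wnt3a comparisons, with 2 of the 16 at an unadjusted p under 0.05 in each (beside 15.1%, 6.72% and 14.2% of all tested genes), and limma voom called 1, 0 and 1. This gene was *Myc*, the growth regulator, with a log2 difference of -0.19 (SE 0.045, limma voom adjusted p = 0.0231) for Wnt3a against control, and it is named after its values were seen. *Ccnd1*, which encodes cyclin D1, was the most abundant of them, with a log2 difference of 0.00 for Wnt3a averaged over both menthol states: 370 ± 14 FPKM in control cells, 394 ± 20.4 after menthol, 365 ± 7.24 after Wnt3a and 400 ± 17.3 after both agents (SD, n = 3). The median log2 difference over the 16 genes was -0.002 for Wnt3a averaged over both menthol states, beside 0.003 over all tested genes. *Notum*, which encodes a secreted enzyme that inactivates Wnt ligands, was at 0.0894 FPKM over the 12 libraries, and 13 of the 29 genes in the table were under the minimum.

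The machinery of the pathway was spread over 5 further lists, of ligands and R-spondins, receptors and co-receptors, secreted inhibitors, Dishevelled with the destruction complex, and nuclear cofactors. Together with the other targets these held 117 genes, of which 101 were in the table and 67 were tested. By limma 0 of 67 were called in Wnt3a against control, 0 in both against menthol and 0 in their average, with 12, 8 and 15 at an unadjusted p under 0.05, beside 1727, 769 and 1626 of all 11451 genes. Limma voom called 4, 0 and 4 of the 67, beside 303, 33 and 279 of all. In the first comparison the 4 were *Crebbp*, *Ep300*, *Fzd1* and *Myc*, all lower, and in the average they were *Fzd1*, *Fzd4* and *Myc*, lower, and *Igfbp4*, higher. With a library left out, limma called 0 to 1 in the first comparison and 0 in the others. Without Wnt3a replicate 3 it called *Ep300*, lower. *Ctnnb1*, which encodes β-catenin, had 177 ± 1.91 FPKM in control cells and 178 ± 2.35 after menthol, beside 176 ± 1.41 after Wnt3a and 176 ± 0.457 after both agents (SD, n = 3). The medians of the lists for the average ranged from -0.026 for Dishevelled and the destruction complex (16 genes tested) to 0.089 for ligands and R-spondins (7 tested).

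In the averaged menthol effect, limma called 1 of the 67 genes, with 16 at an unadjusted p under 0.05, and limma voom called 3, *Ccnd1* (0.11 higher, adjusted p = 0.008), *Dvl3* (0.14 higher, adjusted p = 0.0288) and *Igfbp4* (adjusted p = 0.00361). By limma, *Ccnd1* had an adjusted p of 0.0877. The gene called by limma was *Igfbp4*, which encodes a secreted binding protein of insulin-like growth factors that also binds Frizzled and LRP6. It had 71.8, 76.0 and 72.2 FPKM in control, 62.0, 68.4 and 65.3 with menthol, 75.3, 82.7 and 75.3 with Wnt3a and 70.6, 70.4 and 72.6 with both. The menthol libraries lay below the control libraries, and the libraries with both lay below those with Wnt3a. The log2 difference with menthol was -0.15 (SE 0.031, limma adjusted p = 0.0342). Over the alternatives the difference stayed between -0.16 and -0.12. The adjusted p was 0.0552 to 0.0906 when control replicate 1, 2 or 3, menthol replicate 1 or 3, Wnt3a replicate 1 or 2, or any library with both was left out, and 0.0949 with no FPKM minimum. It was 0.0296 without menthol replicate 2, 0.0372 without Wnt3a replicate 3 and 0.016 with the replicate block. With a library left out, limma called 0 to 3 of the other Wnt genes for menthol. Without menthol replicate 1 the 3 were *Ccnd1*, *Dvl3* and *Gsk3a*, all higher and named after their values were seen. In the interaction limma called 0 of the 67 genes, with 8 at an unadjusted p under 0.05, and limma voom called 0.

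The genes whose pattern was most like that of *Axin2* were ranked by the root mean square difference of log2(FPKM + 0.1), centred on each gene's own mean, over the 12 libraries. *Klf5*, a Krüppel-like transcription factor, was nearest (0.128), followed by *Isl1* (0.163), a LIM-homeodomain factor of sensory and motor neurons, and by the member *Tnfrsf19* (0.184). *Wrap73* (0.187), *Irx3* (0.19) and *Crnde* (0.192), a long noncoding RNA beside the Irx genes, came next, while the median of all 11450 other tested genes was 0.336. *Tcf7* ranked 27th (0.226), *Sp8* 2172nd (0.311) and *Znrf3* 7530th (0.349).

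*Klf5* was at 8.63 ± 0.223 FPKM in control and 11.9 ± 0.0416 with Wnt3a, and at 9.15 ± 0.45 with menthol and 12.8 ± 0.331 with both (SD, n = 3). *Isl1* was at 11.2 ± 0.287, 15.8 ± 1.73, 10.2 ± 0.837 and 15.4 ± 0.427 FPKM in the same order. Unlike *Axin2*, *Isl1* had its highest mean with Wnt3a alone, and it is 1 of the 2 sensory neuron markers over 1 FPKM. The summed sensory neuron markers, most of it *Uchl1*, were 105 to 114 FPKM in control, 113 to 121 with Wnt3a, 111 to 123 with menthol and 114 to 126 with both, and their part in these values was not tested. *Irx3* had 20.2 ± 1.02 FPKM in control, 22.0 ± 0.713 after menthol, 23.4 ± 0.522 after Wnt3a and 27.4 ± 0.715 after both, so that, as for *Axin2*, the libraries with both were the highest. *Wrap73* and *Crnde* differed with Wnt3a by 0.27 (SE 0.046) and 0.28 (SE 0.042) in log2, less than *Axin2* did. These genes were picked for their likeness over the same libraries, so their values are a description.

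**Figure D5:**
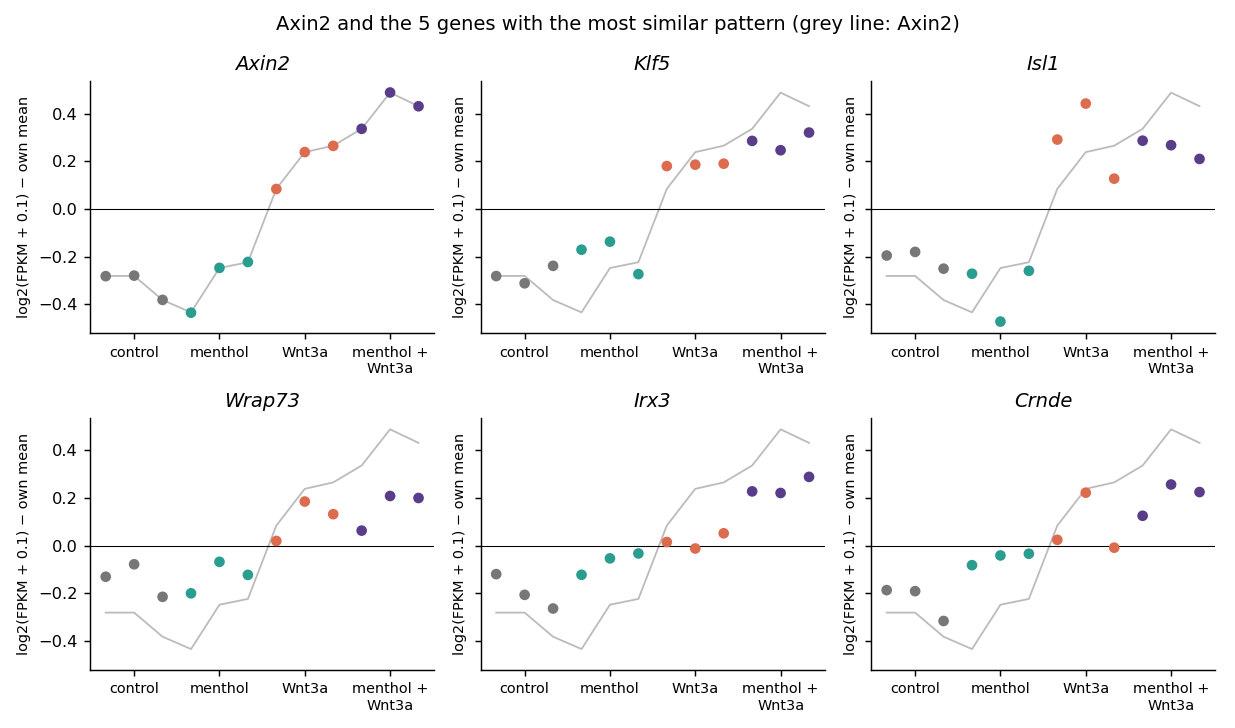
Log2(FPKM + 0.1) minus the gene's own mean (vertical axes) in the 12 libraries, by group, for *Axin2* and the 5 genes that are no members with the most similar pattern. Points are libraries, coloured by group, and the grey line repeats *Axin2* in each panel. *Klf5* follows the line most closely (0.128), and *Isl1*, *Wrap73*, *Irx3* and *Crnde* differ from it by 0.163 to 0.192.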

How the data were processed

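RNA of 12 ND7/23 libraries was analysed from the table of FPKM values that the authors deposited, with 1 column per library. Per the submitters' processing notes and the study's methods, the authors filtered reads with fastp, aligned them with HISAT to mRatBN7.2, counted them per gene with HTSeq, computed FPKM, and used R 3.2.0 and DESeq2 for their own comparisons. FPKM is relative to the library's mapped fragments, so a rise of abundant genes lowers all others. Groups came from the labels.

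The steps of the FPKM values gave back whole reads for 21556 of 21556 genes (relative tolerance 1e-06), 1804 of them above 0 in 1 library only. Tests used limma 3.58.1 in R 4.3.3 on log2(FPKM + 0.1), a minimum mean of 0.5 FPKM, 4 groups in 1 fit, a variance trend and Benjamini-Hochberg adjustment over 11451 genes, and genes were called at an adjusted p under 0.05. The script was tested on simulated data. The members and the lists were chosen with earlier results of these data known. The genes named were the members, genes of the Wnt lists called in any comparison and the 5 genes nearest to *Axin2*. Others named after their values were seen are marked so or are called by limma voom alone, or are level examples (*Ccnd1*, *Ctnnb1*, *Notum*). Same-numbered libraries of different groups showed little common deviation (18 pairs, correlation -0.055 to 0.153, 1 over 0.1), and the main fit did not pair them. The labels do not say whether the numbers pair the samples. Promoters are from RefSeq (GRCr8), for which no positions in mRatBN7.2 were used. The alternatives were other pseudocounts (0.01 and 1), FPKM minimums (1 and none), centred libraries, limma voom on the recovered reads, the authors' threshold of 2-fold, fits of only the 2 groups compared, a replicate block and each library left out.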

Additional observations from a re-analysis of the deposited data

How the results depend on the processing

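The log2 differences of *Axin2* with Wnt3a stayed between 0.44 and 0.57 without menthol and between 0.63 and 0.76 with it over 19 alternatives, and those of *Tnfrsf19* between 0.60 and 0.81 and between 0.45 and 0.56. As a description, of 5 tested members, Wnt3a against control called 1 with no FPKM minimum (main value 2) and 1 to 2 with a library left out, and both against menthol called 2 by limma voom (main value 1) and 1 to 2 with a library left out. No member was called for menthol under any alternative run, nor, as a description, for the interaction.

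The number of genes called moved more. Wnt3a against control called 50 genes, 9 with no FPKM minimum, 303 by limma voom, 2 at more than 2-fold, 17 in a fit of its 2 groups and 6 to 291 with a library left out, the last without Wnt3a replicate 3. Both against menthol called 11, 2 with no FPKM minimum, 5 with libraries centred on their median, 33 by limma voom, 0 at more than 2-fold, 4 in a fit of its 2 groups and 3 to 14 with a library left out. The averaged Wnt3a effect called 92, 57 with no FPKM minimum, 279 by limma voom, 0 at more than 2-fold and 55 to 151 with a library left out. The averaged menthol effect called 132, 85 with no FPKM minimum, 294 by limma voom, 1 at more than 2-fold and 52 to 144 with a library left out. The interaction called 0, 1 with no FPKM minimum and 0 to 1 with a library left out. The minimum and the 2-fold threshold change how many genes are tested or kept by construction, and the cause of the other shifts was not tested. Centring gave 43 higher of 98 for Wnt3a (54 of 92 uncentred) and 41 higher of 135 for menthol (56 of 132 uncentred).

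Some values near 0 changed sign. The Wnt3a difference of *Znrf3* ranged from -0.006 to 0.106 without menthol, from -0.099 to 0.10 with it and from -0.033 to 0.067 on average, and the averaged one of *Sp8* from -0.024 to 0.044. With a library left out, the menthol effect ranged from -0.086 to 0.016 for *Tnfrsf19* (0.016 without Wnt3a replicate 3, and 0.001 when replicate 3 of both agents was left out) and from -0.009 (without menthol replicate 2) to 0.10 for *Tcf7*. For *Rnf43* it ranged from -0.024 to 0.083 with a library left out: -0.024 without menthol replicate 1, -0.015 without menthol replicate 3, -0.022 without Wnt3a replicate 1, -0.015 without Wnt3a replicate 2 and -0.013 when replicate 1 of both agents was left out. The interaction of *Znrf3* ranged from -0.134 to 0.066, the latter when replicate 2 of both agents was left out.

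With the replicate number as a block, the counts were 50, 10, 135, 157 and 0 in the order above. The replicate block changed the call of no member. In the menthol effect it added *Ccnd1* and *Wnt10b* to *Igfbp4* among the other Wnt genes, but the libraries are known to share only a number. Depth limits *Lef1*, *Lgr5*, *Nkd1* and *Apcdd1*, with at most 10 reads in any library, and 3 libraries per group limit the interaction, whose SE was 0.102 for *Axin2*.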
